A study of Mus musculus with 30 samples.

Results

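Complex I (NADH:ubiquinone oxidoreductase) is the first enzyme of the mitochondrial respiratory chain, and its nuclear genes were examined here in astrocytes and microglia from the spinal cord of mice with experimental autoimmune encephalomyelitis (EAE). The genes were chosen by name and annotation: every protein-coding gene whose symbol was Nduf followed by a, b, c, s, v, ab or af and a number. The rule found 46 of the 30952 genes measured, of which 38 were named as subunits and 8, Ndufaf1 to Ndufaf8, as assembly factors. Of the 38, 36 are complex I subunits, and Ndufa4 and its relative Ndufa4l2 carry the name although the Ndufa4 protein is now placed with complex IV. Another 3 genes with matching names, 1 non-coding RNA and 2 pseudogenes, were not protein-coding and were left out.

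The libraries came from female C57BL/6 mice in 3 groups. Naive mice were not immunized, whereas both EAE groups were immunized with a myelin oligodendrocyte glycoprotein peptide and, once first clinical signs appeared, were dosed by oral gavage over 3 days with vehicle (20% Captisol) or with 50 mg/kg GSK'547, an inhibitor of the kinase RIPK1. These groups are named naive, EAE-vehicle and EAE-RIPK1inh below. Each cell type had 4 naive, 6 EAE-vehicle and 5 EAE-RIPK1inh libraries, 30 in all. Astrocytes were sorted as GLAST+ cells without CD11b, CD45 or CD140a, and microglia as CD11b+ CX3CR1+ cells with intermediate CD45. The labels did not say whether the same mouse gave both cell types. The paper describes both cell types as isolated from the same EAE mice, 6 with vehicle and 5 with the inhibitor. With 6 and 5 libraries of each cell type, the EAE libraries of both cell types share mice. The paper counts 4 naive mice for the libraries of both. No label tells which libraries share a mouse, and p-values measure only the spread between these libraries.

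Complex I is an L-shaped enzyme. Its N module oxidizes NADH, its Q module passes the electrons to ubiquinone, and its membrane arm pumps protons. A set of core subunits carries out this chemistry, of which 7 are nuclear and 7 are encoded by the mitochondrial genome (the mt-Nd genes). The accessory subunits surround the core and are needed for stability and assembly, and the assembly factors help to build the enzyme but are not part of the finished complex. In the RNA of most tissues complex I genes are broadly expressed, since nearly every cell respires, although astrocytes and activated microglia are both known for a high glycolytic flux.

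All 46 positions matched the GENCODE M21 gene models on GRCm38. The members lay on many chromosomes and were short, with a median exon length of 1532 bases in subunits and 1802 bases in assembly factors beside 4032 bases over protein-coding genes. Short windows of sequence are shown, taken from the RefSeq promoters of GRCm38.p6, which reach from 250 bases before to 50 bases after each start and were given for 40 of the 46 members (33 subunits and 7 assembly factors). The first set holds the letters AAGATGGCG, part of the motif of the factor YY1, and is shown because these letters were in 5 of 33 subunit promoters (15.2%) and in 2.38% of all 13753 promoters. Motif letters are in capitals and each window is written 5′ to 3′ on the strand of its gene.
Ndufs7, chr10:80249463-80249491, plus strand: ggccgaggccAAGATGGCGgcgctggcgg
Ndufs4, chr13:114388045-114388069, minus strand: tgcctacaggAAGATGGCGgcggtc
Ndufs6, chr13:73328433-73328459, minus strand: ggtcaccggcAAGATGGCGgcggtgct
Ndufa9, chr6:126849097-126849125, minus strand: attgtgggagAAGATGGCGgccgccgtcc
Ndufc1, chr3:51408915-51408943, minus strand: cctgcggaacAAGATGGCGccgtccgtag
Ndufaf8, chr11:120098934-120098962, plus strand: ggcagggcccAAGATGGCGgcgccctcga
Each of these windows lay in the first 50 bases after the RefSeq start, within the 5′ end of the transcript. Among assembly factors, 1 of 7 promoters held these letters.

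The second set holds the motif, in capitals, of nuclear respiratory factor 1 (NRF1), which is known to act on respiratory chain genes. These letters were in 1 of 33 subunit promoters (3.03%), in 2 of 7 assembly factor promoters (28.6%) and in 1.64% of all promoters.
Ndufa11, chr17:56717692-56717721, plus strand: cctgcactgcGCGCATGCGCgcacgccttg
Ndufaf4, chr4:24897960-24897989, plus strand: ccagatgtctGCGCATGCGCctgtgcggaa
Ndufaf5, chr2:140170652-140170681, plus strand: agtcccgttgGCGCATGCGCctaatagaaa
The letters CCGGAAG of the ETS family were in 4 subunit and 2 assembly factor promoters and in 14.3% of all promoters. TATAAA was in 4 subunit promoters and no assembly factor promoter, against 10.5% of all, and TCAAGGTCA of the estrogen-related receptors was in none of the 40 and in 0.269% of all. Both strands were searched, and in the windows shown no motif overlapped one of another name. A match describes the letters only. The YY1 letters were in 2 of the 20 subunit promoters whose gene passed the cutoff in EAE microglia and in 3 of the 13 whose gene did not.

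The deposited values were log2 FPKM (fragments scaled by exon length and by the mapped fragments of the library), quantile-normalized over the 30 libraries and ranging from 0 to 15.34, so levels are per length and can be compared between genes. They carry no read counts, so sequencing depth cannot be given, and the number of genes with signal ranged from 8710 to 20398 in microglia and from 6728 to 22981 in astrocytes. Signal was present in all 30 libraries for 39 of the 46 members, and Ndufa4l2 had none in 24 libraries. A gene without signal could still carry a value above 0. Such values reached 2.74 log2 FPKM in EAE-vehicle astrocyte replicate 1 and 1.74 in naive microglia replicate 4, so low levels and low list means can stand for no signal. A fold change beyond 1.5 in either direction with an unadjusted p under 0.05 in limma, the cutoff of the study, is called passing the cutoff here, and adjusted p-values are Benjamini-Hochberg values over all genes of the cell type.

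In naive mice, complex I transcripts were more abundant in astrocyte than in microglia libraries. The median level of the 38 subunits in a library was 7.68 ± 0.36 log2 FPKM (SD, n = 4) in naive astrocytes and 6.14 ± 0.35 (n = 4) in naive microglia, and the ranges did not overlap. The mean of naive astrocytes was above that of naive microglia for 38 of 38 subunits and for 6 of 8 assembly factors. The share of all genes in this direction was not computed. Ndufa4l2 counted through 1 naive astrocyte library at 1.00 log2 FPKM and had no signal in the other naive libraries of either cell type. Since both cell types were normalized together to 1 distribution, these are levels relative to the other RNA of each library. Markers of other cells also differed between these libraries. List means in naive astrocytes were 6.63 for oligodendrocytes, 6.91 for erythrocytes and 4.76 for neurons, beside 2.04, 1.82 and 0.44 in naive microglia. The list of monocytes and neutrophils went the other way, at 0.80 and 3.53. Their part in the complex I levels was not tested.

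The most abundant subunit over the 15 libraries of either cell type was Ndufb8, an accessory subunit of the distal membrane arm, at a mean of 9.05 log2 FPKM in astrocytes and 8.20 in microglia. It was followed by Ndufb9, another distal arm subunit, at 8.94 in astrocytes and by Ndufa2, an N module accessory subunit, at 8.03 in microglia. Ndufb4 and Ndufa4l2 had the lowest levels among the 38 in both cell types, with means of 5.23 and 0.78 in astrocytes. Assembly factors lay lower, with means from 3.08 (Ndufaf5) to 4.76 (Ndufaf8) in astrocytes and from 2.26 (Ndufaf5) to 5.10 (Ndufaf7) in microglia. The subunit median exceeded the assembly factor median of the same library by 3.12 ± 0.35 log2 units in naive astrocytes and by 2.33 ± 0.22 in naive microglia (SD, n = 4 each).

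**Figure D1:**
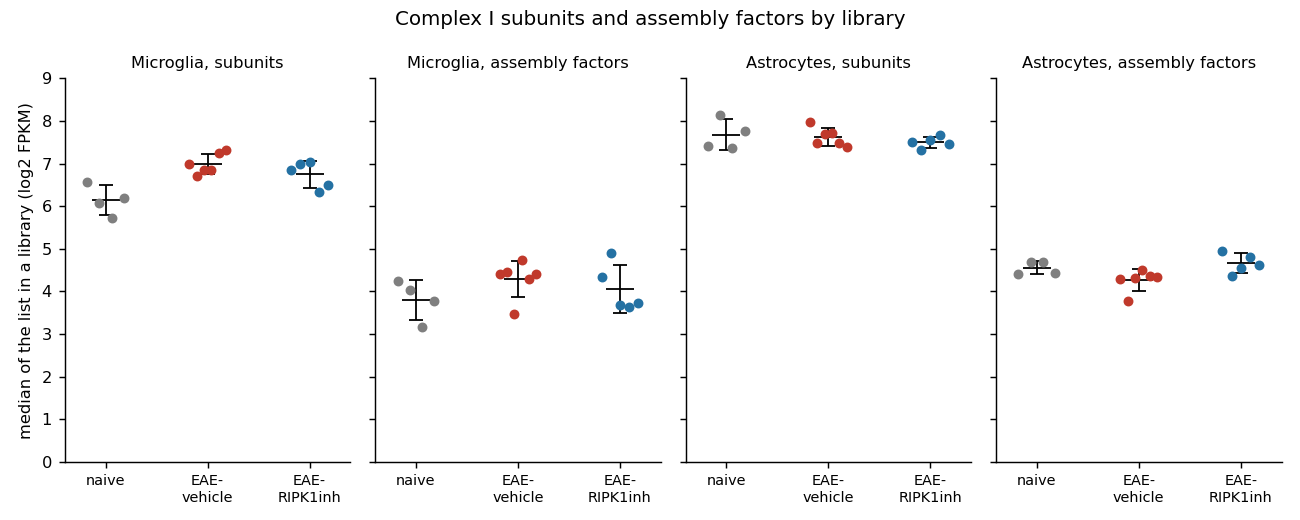
Median level of the 38 subunits and of the 8 assembly factors in each library (log2 FPKM, vertical axis) by group and cell type, with 1 point a library and bars for the mean and SD. The 6 EAE-vehicle microglia libraries sit between 6.70 and 7.31 for subunits, above the 4 naive ones at 5.72 to 6.58, and the astrocyte groups overlap.

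In microglia, subunit transcripts were higher in EAE-vehicle than in naive libraries. The subunit median per library was 6.14 ± 0.35 log2 FPKM in naive (n = 4) and 6.99 ± 0.24 in EAE-vehicle (n = 6). Of the 38 subunits, 22 passed the cutoff as higher and none as lower, where 6.13% of the 28958 genes tested in microglia passed as higher and 5.86% as lower. Among the 10413 genes with a mean of at least 1 log2 FPKM, 16.0% passed as higher, and 37 of the subunits were among them. The median log2 fold change was 0.99 over the subunits and 0.02 over the genes of that mean level, and 34 of 38 subunits were above 0. By limma's adjusted p under 0.05, 11 subunits were higher, beside 2.37% of all genes. With 4 naive libraries the groups did not overlap for 12 subunits, all higher in EAE-vehicle, where 2.93% of all genes and 7.91% of those with a mean of at least 1 were higher without overlap.

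Ndufv3, a small accessory subunit of the N module (chr17:31520115-31531331), had the largest rise among subunits with an adjusted p under 0.05. Its levels were 4.46, 6.25, 6.28 and 6.28 log2 FPKM in naive microglia, from 7.29 to 8.31 with a median of 7.88 in EAE-vehicle microglia, and 6.59, 6.96, 7.37, 7.60 and 7.77 in EAE-RIPK1inh microglia. Every EAE library of either treatment lay above all naive libraries. The EAE-vehicle mean exceeded the naive mean by 2.03 ± 0.37 on the log2 scale (SE, adjusted p = 0.0048 by limma), and by 1.58 without the lowest naive library.

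Ndufa1 (chrX:37187588-37191163), a membrane arm subunit required for assembly, had levels of 5.74, 6.60, 6.61 and 7.64 log2 FPKM in naive microglia. Its EAE-vehicle levels ran from 8.34 to 8.94 with a median of 8.61, and those of EAE-RIPK1inh were 6.78, 7.65, 8.09, 8.67 and 9.10. The vehicle libraries were tightly grouped above all naive ones, while the inhibitor libraries spread over both ranges. The log2 fold change of EAE-vehicle over naive was 2.00 ± 0.41 (adjusted p = 0.0109 by limma).

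Ndufa12, an N module accessory subunit, had naive levels of 4.75, 5.77, 6.56 and 6.97 log2 FPKM and EAE-vehicle levels from 7.18 to 8.27 with a median of 8.04. These groups did not overlap, and the log2 difference was 1.93 ± 0.49 (adjusted p = 0.0416 by limma). Ndufc1, a membrane arm subunit whose window is printed above, had naive levels of 3.70, 5.22, 5.63 and 6.21 and EAE-vehicle levels from 6.55 to 7.62 with a median of 7.11. It also showed no overlap, with a log2 difference of 1.96 ± 0.52, but its adjusted p in limma was 0.0524.

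The other subunits without overlap were Ndufa2, Ndufa3, Ndufa4, Ndufa6, Ndufa13, Ndufb2, Ndufb4 and Ndufb7, and their log2 fold changes ran from 1.23 (Ndufa4) to 1.73 (Ndufa2). For Ndufa4, the complex IV-associated protein, naive levels were 5.86, 6.22, 6.38 and 6.61 log2 FPKM and EAE-vehicle levels ran from 7.12 to 7.78 with a median of 7.54. The naive libraries all lay below the vehicle libraries, with a log2 difference of 1.23 ± 0.22 (adjusted p = 0.00453 by limma). Ndufb5, a distal arm subunit, had the largest fitted log2 difference, 2.06 ± 0.85 with an adjusted p of 0.277 in limma. That value turned on naive replicate 4, which had no signal (0.10 log2 FPKM) beside 5.03, 5.73 and 6.15 in the other naive libraries, and it was 0.67 without that library.

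By place in the enzyme, 5 of 10 N module subunits, 2 of 6 Q module subunits, 7 of 9 proximal membrane arm subunits and 7 of 10 distal membrane arm subunits passed as higher in EAE-vehicle microglia. Their median log2 fold changes were 1.03, 0.35, 1.11 and 1.17 in that order. The remaining Ndufab1, the acyl carrier protein that sits in the enzyme at more than 1 place, had a log2 difference of 0.56 ± 0.29 and did not pass. Of the accessory subunits 20 of 29 passed, with a median of 1.06, and of the nuclear core subunits 1 of 7, with a median of 0.48. The core count rested on single naive libraries, at 4 without replicate 1, 3 without replicate 2, 2 without replicate 3 and 0 without replicate 4, and it was 3 among genes filtered on a mean of at least 1. No test was run of the difference between these groups of genes, which are not replicates.

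**Figure D2:**
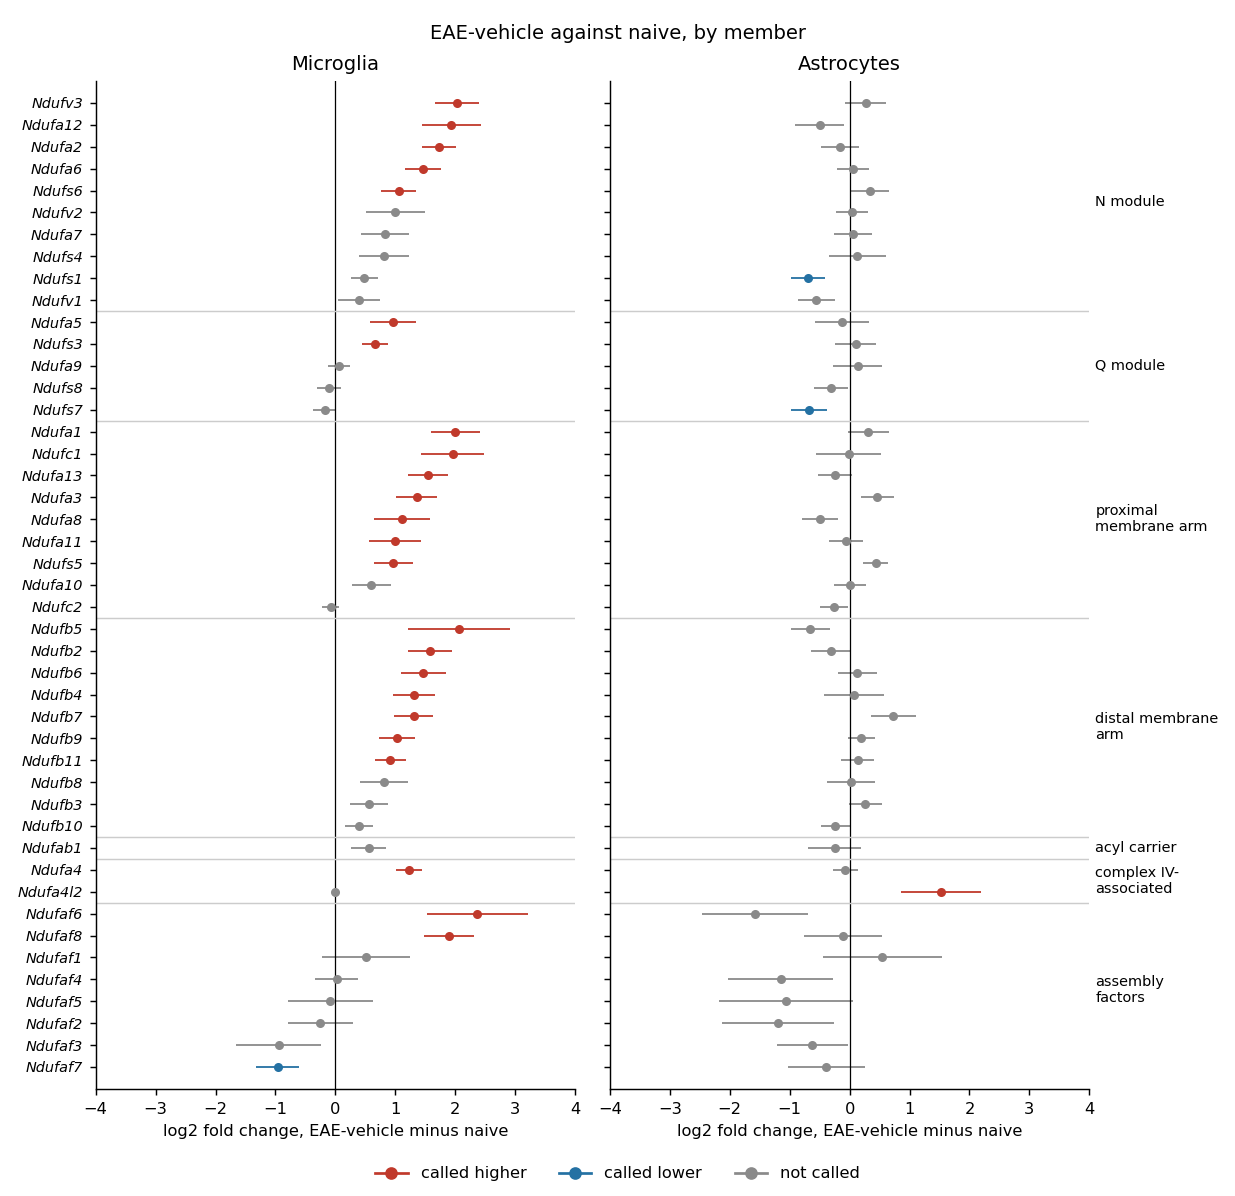
Log2 fold change of EAE-vehicle over naive (horizontal axis, log2 FPKM units) for the members drawn in microglia and in astrocytes, ordered by place in the enzyme, with bars for the SE of limma. Points in red passed the cutoff as higher, in blue as lower and in grey did not pass, and in microglia 22 subunits are red and none is blue.

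The core subunit that passed was Ndufs3, a Q module subunit. Its levels were 5.98, 6.24, 6.64 and 6.80 log2 FPKM in naive microglia and from 6.37 to 7.31 with a median of 7.18 in EAE-vehicle microglia. The groups overlapped through EAE-vehicle replicate 3 at 6.37, and the log2 difference was 0.65 ± 0.22 (adjusted p = 0.141 by limma). Without naive replicate 4 it was 0.51 and no longer passed the cutoff.

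The Q module subunits Ndufs7 and Ndufs8, which hold the last iron-sulfur clusters before ubiquinone, showed little difference in microglia. Ndufs7 had naive levels of 6.67, 6.89, 7.03 and 7.22 log2 FPKM and EAE-vehicle levels from 6.28 to 7.21 with a median of 6.76, a log2 difference of -0.18 ± 0.20. Ndufs8 had naive levels of 7.15, 7.20, 7.27 and 7.80 and EAE-vehicle levels from 6.85 to 7.63 with a median of 7.24, a log2 difference of -0.11 ± 0.19. For both genes the groups overlapped throughout. In the N module, log2 differences were 0.48 ± 0.23 for Ndufs1, which carries electrons away from the flavin site, 0.39 ± 0.35 for the flavin-binding subunit Ndufv1 and 1.00 ± 0.50 for its partner Ndufv2, and none passed. Naive replicate 4 was the lowest naive library for Ndufs3, Ndufs8, Ndufb5, Ndufv1, Ndufv2 and Ndufv3, among others. It was the highest for Ndufs7 (7.22 log2 FPKM), Ndufa12 (6.97) and Ndufa11 (8.10), among others, so it was not low throughout. It was at 4.05 log2 FPKM for Ndufv1 and 3.88 for Ndufv2, beside 5.41 to 5.76 and 5.32 to 7.14 in the other naive libraries. This library had the fewest genes with signal of all microglia libraries, 8710, and the part of signal breadth in the values above was not tested. Without it, 21 subunits passed.

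The assembly factors did not move together in EAE microglia. Their median per library was 3.80 ± 0.47 log2 FPKM in naive and 4.29 ± 0.43 in EAE-vehicle, and 2 of 8 passed as higher and 1 as lower, with a median log2 fold change of -0.03. Without naive replicate 3, 1 of the 8 passed. The subunit median exceeded the assembly factor median by 2.33 ± 0.22 in naive, 2.70 ± 0.48 in EAE-vehicle and 2.69 ± 0.46 in EAE-RIPK1inh microglia, differences within their spread.

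Ndufaf8 (chr11:120098928-120100705), which is known to work with Ndufaf5 on the modification of Ndufs7, was the assembly factor with an adjusted p under 0.05. Its levels were 3.26, 3.42, 3.88 and 4.84 log2 FPKM in naive microglia, from 5.03 to 6.16 with a median of 5.90 in EAE-vehicle, and 4.33, 4.40, 5.33, 5.91 and 6.19 in EAE-RIPK1inh. The naive and vehicle groups did not overlap, and the inhibitor libraries reached from within the naive range to just above the vehicle range. The log2 difference of EAE-vehicle over naive was 1.90 ± 0.41 (adjusted p = 0.0159 by limma). Its partner Ndufaf5 had a log2 difference of -0.09 ± 0.71 over low and scattered levels.

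Ndufaf6, a factor for the early membrane arm, had naive microglia levels of 0.06, 0.13, 4.57 and 4.62 log2 FPKM and EAE-vehicle levels from 4.21 to 5.57 with a median of 4.55. A pair of naive libraries had no signal and the other pair lay inside the vehicle range. The log2 difference of 2.37 ± 0.84 (adjusted p = 0.173 by limma) therefore rested on replicates 3 and 4. It was 1.61 without naive replicate 3 and 1.63 without naive replicate 4, and passed in neither case. Ndufaf7, an arginine methyltransferase of complex I assembly, was the one that fell. It had naive levels of 5.10, 5.75, 5.83 and 6.11 and EAE-vehicle levels from 3.92 to 5.57 with a median of 4.82, a log2 difference of -0.96 ± 0.36 (adjusted p = 0.202 by limma). Most vehicle libraries lay below the naive range, and the highest was inside it.

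The remaining factors had wide intervals in microglia. The log2 differences were 0.51 ± 0.73 for Ndufaf1, which joins the membrane arm intermediate, -0.25 ± 0.54 for Ndufaf2, a late-stage factor, -0.95 ± 0.71 for Ndufaf3 and 0.02 ± 0.35 for Ndufaf4, a pair that works on the early Q module. EAE-vehicle replicate 3 was low for Ndufaf1 (1.55), Ndufaf3 (0.60) and Ndufaf5 (0.05 log2 FPKM), and its assembly factor median was 3.46. Ndufaf3 and Ndufaf5 had no signal in that library.

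Related gene lists gave the following counts in EAE-vehicle against naive microglia. Of the mt-Nd genes, 4 of 7 passed as higher (mt-Nd6 at 2.22, mt-Nd5 at 1.53, mt-Nd4 at 1.25 and mt-Nd2 at 0.96 on the log2 scale), with a list median of 0.96. Of 8 complex II subunits and assembly factors, which serve the other electron entry point, 3 passed as higher (Sdhaf4 at 1.71, Sdhc at 0.94 and Sdhb at 0.87), with a list median of 0.17. Of 11 assembly factors of complex I that lack the Ndufaf name, Dmac1 alone passed (1.24), with a list median of 0.19. Of 12 regulators of mitochondrial transcription and biogenesis, Pprc1, a coactivator of the PGC-1 family, alone passed (1.21), with a list median of -0.12.

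Markers of other cells and of microglia themselves differed between the same groups. Of 10 microglia markers, 7 passed as lower in EAE-vehicle microglia and 1, Aif1, as higher, and the mean level of the list ran from 10.4 to 11.1 log2 FPKM in naive and from 8.25 to 8.85 in EAE-vehicle libraries. Of 9 monocyte and neutrophil markers, 3 passed as higher (Fn1, Ly6c2 and Plac8), with list means of 2.22 to 5.98 in naive and 3.41 to 6.81 in EAE-vehicle libraries. Ccr2, a defining monocyte marker, had no signal in any naive microglia library but did not pass as higher in EAE-vehicle. Of 9 T cell markers none passed, with list means of 0.14 to 0.44 and 0.24 to 0.95. Of 8 astrocyte markers 2 passed as higher, Aldh1l1 (2.55, adjusted p = 0.0113 by limma) and Gfap (1.56), with list means of 0.99 to 1.81 and 1.57 to 2.11 log2 FPKM. Of 7 oligodendrocyte markers Mbp passed as higher (1.77), with list means of 1.72 to 2.28 and 2.03 to 2.95. The endothelial marker Pecam1 (-2.65) and the neuronal marker Snap25 (-1.14) passed as lower, and no marker of oligodendrocyte precursors or erythrocytes passed. The part of these markers in the subunit differences was not tested. In bulk libraries of sorted cells, a change in which cells were collected and a change in the RNA of each cell cannot be told apart.

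RIPK1 inhibition was compared with vehicle in the same disease. In microglia the subunits lay lower with the inhibitor, but few passed. The subunit median per library was 6.74 ± 0.31 log2 FPKM in EAE-RIPK1inh (n = 5) and 6.99 ± 0.24 in EAE-vehicle (n = 6), and 6 of 38 subunits passed as lower and none as higher, where 0.701% of all genes passed as lower and 1.06% as higher. The median log2 fold change was -0.39 over subunits, with 31 of 38 below 0, and 0.02 over genes with a mean of at least 1. No subunit had an adjusted p under 0.05 in limma. An unadjusted p under 0.05 was found for 7 subunits and for 832 of the 28958 genes tested. The same vehicle libraries entered this comparison and the one with naive mice.

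The 6 were Ndufa12 (-1.15 ± 0.46), Ndufb4 (-0.93 ± 0.33), Ndufa3 (-0.75 ± 0.32), Ndufa13 (-0.75 ± 0.31), Ndufb7 (-0.71 ± 0.30) and Ndufa2 (-0.62 ± 0.27), each with an adjusted p of 0.93 by limma. All are accessory subunits, of which Ndufb4 and Ndufb7 belong to the distal arm. The libraries of Ndufb4 were at 3.53, 3.94, 4.40, 4.93 and 5.27 log2 FPKM with the inhibitor and from 4.95 to 6.09 with a median of 5.12 with vehicle. For Ndufa12 they were at 5.49, 6.16, 6.72, 7.51 and 8.07 with the inhibitor and from 7.18 to 8.27 with vehicle. In both genes inhibitor replicates 3 to 5 lay below every vehicle library, and replicate 1 was just under the vehicle range for Ndufb4 and inside it for Ndufa12. For Ndufa13, a proximal arm subunit also known as GRIM-19, inhibitor levels were 5.82, 6.59, 7.03, 7.29 and 7.50 against 7.33 to 7.77 with vehicle. Its groups overlapped only through replicate 2, and the exact two-sided permutation p was 0.00433.

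The count of 6 depended on single libraries. It was 1 without EAE-RIPK1inh replicate 4 or without replicate 5, 2 without EAE-vehicle replicate 5 or without replicate 6, and 11 without EAE-RIPK1inh replicate 2. It was 22 when limma weighted the libraries by their fit, a setting under which calls over all genes also rose. In EAE-RIPK1inh microglia the microglia marker list had means of 8.35 to 9.87 log2 FPKM, with 2 of 10 markers, Cx3cr1 and Siglech, passing as higher than vehicle. None of 9 monocyte and neutrophil markers passed, with list means of 2.78 to 7.87, and T cell list means ran from 0.11 to 2.35. Their part in the subunit values was not tested.

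No core subunit and no assembly factor passed in this comparison in microglia, with median log2 fold changes of -0.33 over the 7 core subunits, -0.46 over the 29 accessory subunits and -0.25 over the 8 assembly factors. No mt-Nd gene passed either, with a median of -0.07, and of complex II genes Sdhb passed as lower (-0.71).

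**Figure D3:**
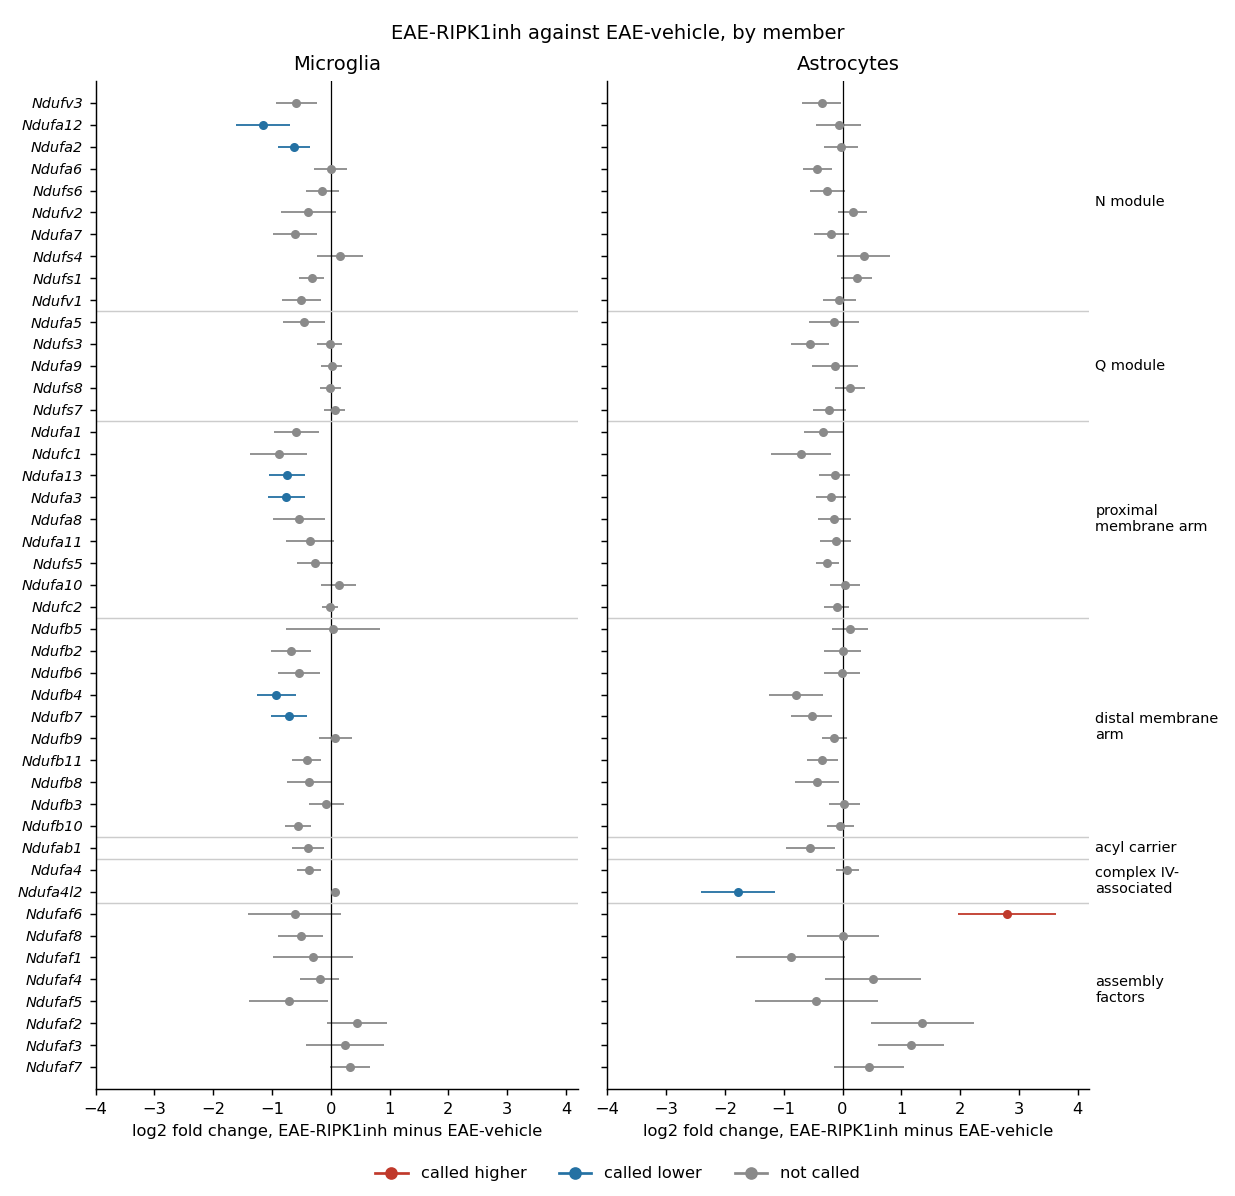
Log2 fold change of EAE-RIPK1inh over EAE-vehicle (horizontal axis, log2 FPKM units) for the members drawn in microglia and in astrocytes, ordered by place in the enzyme, with bars for the SE of limma and colours as for the EAE comparison. In microglia most subunits lie below 0 and 6 passed as lower, and in astrocytes Ndufaf6 passed as higher at 2.80 and Ndufa4l2 as lower at -1.78.

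Against naive microglia, EAE-RIPK1inh microglia had 14 subunits passing as higher and none as lower, with 5.35% and 4.71% of all genes in these directions, and a median log2 fold change of 0.63 over the subunits. The count was 8 without EAE-RIPK1inh replicate 3 and 9 without EAE-RIPK1inh replicate 2 or naive replicate 2. Ndufa6, an accessory subunit of the LYR family, was the 1 subunit with an adjusted p under 0.05 (1.46, adjusted p = 0.0188 by limma). Ndufaf8 passed as higher at 1.38 and no other assembly factor did, and 5 of 7 mt-Nd genes passed as higher.

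**Figure D4:**
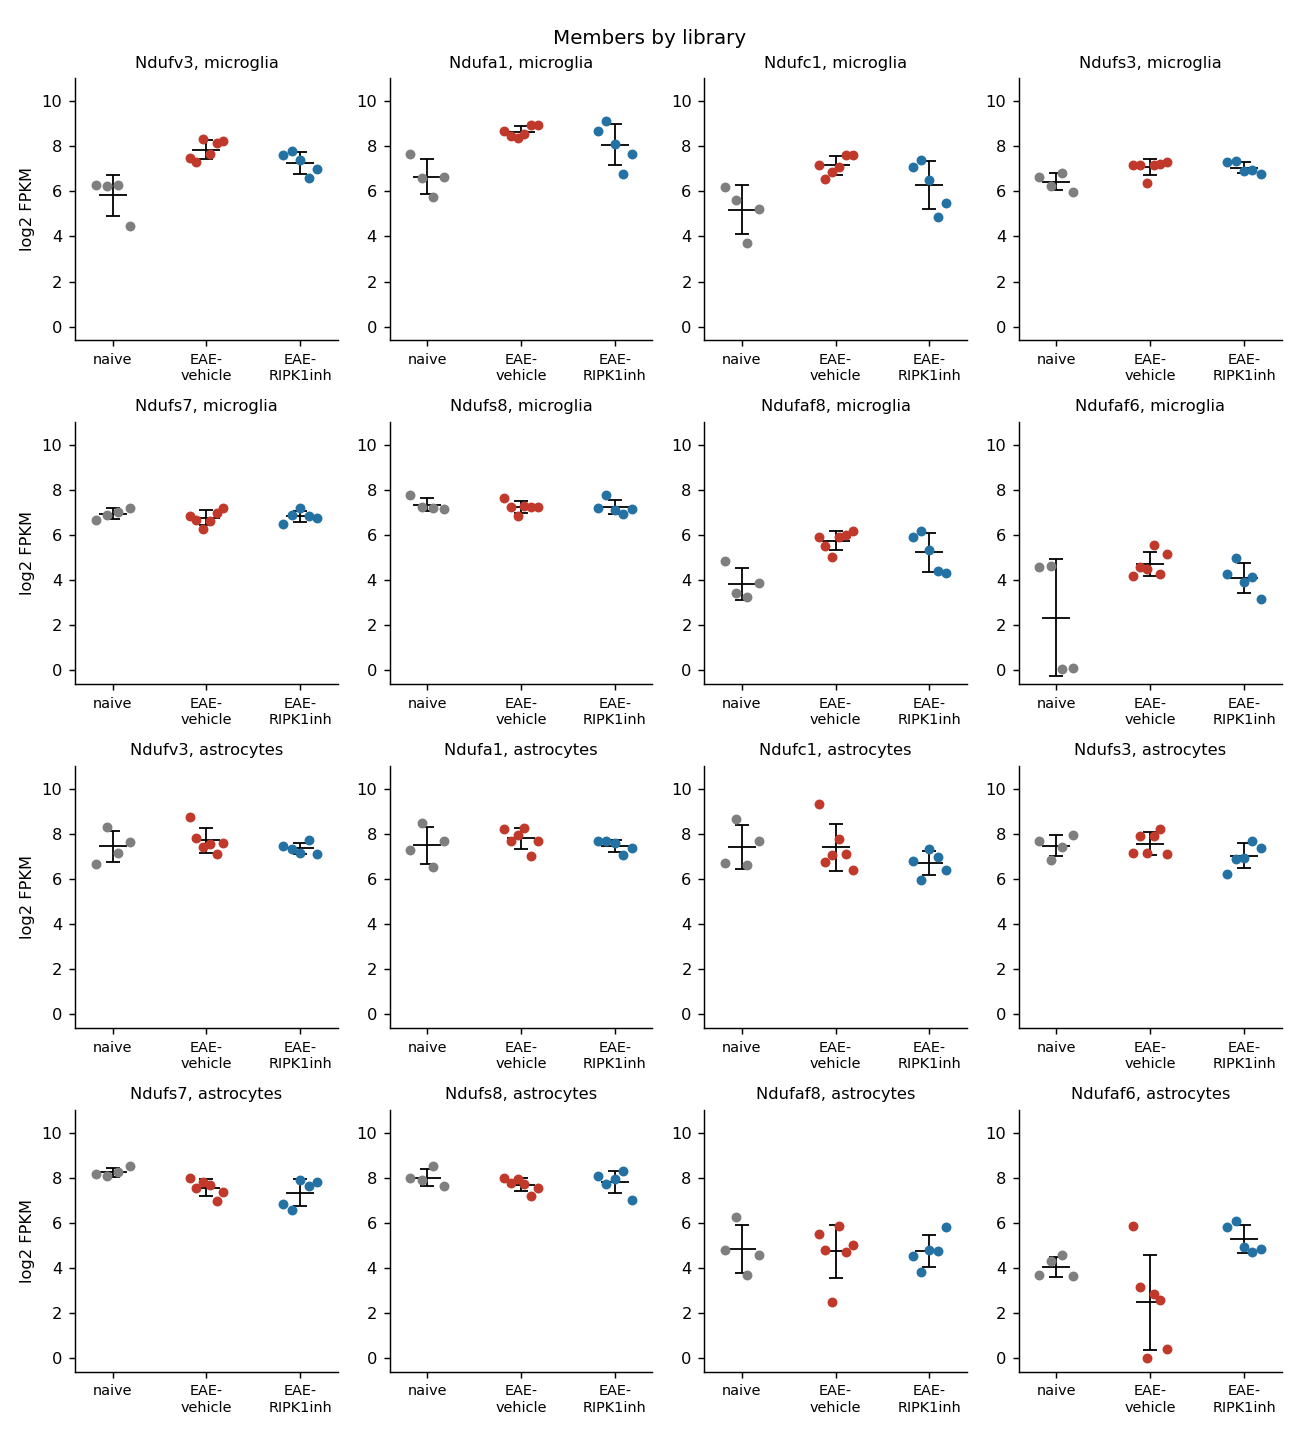
Levels of 8 members in each library (log2 FPKM, vertical axis) in the 3 groups of both cell types, with 1 point a library and bars for the mean and SD. Ndufv3, Ndufa1, Ndufc1 and Ndufaf8 show naive microglia below all EAE-vehicle microglia, Ndufs7 and Ndufs8 overlap between these groups, and Ndufaf6 shows libraries near 0.

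In astrocytes, subunit levels differed little between EAE-vehicle and naive mice. The subunit median per library was 7.68 ± 0.36 log2 FPKM in naive (n = 4) and 7.63 ± 0.22 in EAE-vehicle (n = 6). Of 38 subunits, 1 passed as higher and 2 as lower, where 2.69% and 4.01% of the 30718 genes tested in astrocytes passed, and none had an adjusted p under 0.05 in limma, with 3 at an unadjusted p under 0.05. The count of 3 was 0 without naive replicate 1, naive replicate 3 or EAE-vehicle replicate 5, 1 without EAE-vehicle replicate 6 and 5 without EAE-vehicle replicate 1. The median log2 fold change was 0.02 over subunits and -0.09 over genes with a mean of at least 1.

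The 2 that passed as lower, a count near the share of all genes, were core subunits. The naive and EAE-vehicle groups did not overlap for 3 subunits, all lower in EAE-vehicle. The share of all genes without overlap was not computed in astrocytes. Ndufs1, the largest subunit of the N module, was at 6.47, 6.82, 6.85 and 7.02 log2 FPKM in naive astrocytes, from 5.77 to 6.44 with a median of 6.11 in EAE-vehicle, and 6.07, 6.11, 6.14, 6.29 and 7.06 in EAE-RIPK1inh. All vehicle libraries lay just below all naive ones, and 1 inhibitor library lay above both groups. The log2 difference of EAE-vehicle over naive was -0.69 ± 0.28 (adjusted p = 0.557 by limma, exact two-sided permutation p = 0.00476, the smallest that 210 splits allow).

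Ndufs7 was at 8.06, 8.15, 8.24 and 8.52 log2 FPKM in naive astrocytes, from 6.96 to 7.99 with a median of 7.62 in EAE-vehicle, and 6.55, 6.83, 7.65, 7.79 and 7.88 in EAE-RIPK1inh. Naive libraries were above all EAE libraries of both treatments, and the log2 differences from naive were -0.68 ± 0.30 for EAE-vehicle (adjusted p = 0.654 by limma) and -0.90 ± 0.31 for EAE-RIPK1inh (adjusted p = 0.742 by limma). Ndufv1 was from 7.43 to 7.86 in naive and from 6.64 to 7.39 in EAE-vehicle astrocytes, again without overlap. Its log2 difference of -0.56 ± 0.30 was under the fold needed to pass, and its unadjusted p in limma was not under 0.05. Ndufs8 overlapped between groups, from 7.62 to 8.51 in naive and from 7.18 to 7.98 in EAE-vehicle. The core subunits as a list had a median log2 fold change of -0.31 and the 29 accessory subunits, none of which passed apart from Ndufa4l2 outside the list, a median of 0.05. Neither Ndufs1 nor Ndufs7 passed in EAE-vehicle against naive when each library was first centred on its median level.

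The subunit that passed as higher was Ndufa4l2, known as a target of hypoxia-inducible factor. It had no signal in 3 naive astrocyte libraries and 1.00 log2 FPKM in the other, and in EAE-vehicle astrocytes it had none in 2 libraries and 1.46, 2.76, 3.01 and 3.41 in the rest. It had no signal in any EAE-RIPK1inh astrocyte library, nor in microglia apart from 0.36 in 1 EAE-RIPK1inh library. The log2 difference was 1.52 ± 0.67 for EAE-vehicle over naive (adjusted p = 0.646 by limma) and -1.78 ± 0.63 for EAE-RIPK1inh over EAE-vehicle (exact two-sided permutation p = 0.0606), and a value of 0 in these files may be a low level that was not detected.

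The assembly factors lay lower in EAE-vehicle astrocytes, but none passed. Their median per library was 4.55 ± 0.16 log2 FPKM in naive, 4.26 ± 0.26 in EAE-vehicle and 4.66 ± 0.23 in EAE-RIPK1inh. The log2 differences from naive were below 0 for 7 of 8, with a median of -0.84, and were -1.58 ± 0.88 for Ndufaf6, -1.19 for Ndufaf2, -1.15 for Ndufaf4, -1.06 for Ndufaf5, -0.62 for Ndufaf3, -0.39 for Ndufaf7, -0.11 for Ndufaf8 and 0.55 for Ndufaf1. The median was -0.39 without EAE-vehicle replicate 1, the astrocyte library with the fewest genes with signal (6728). In that library Ndufaf2 (0.00), Ndufaf3 (2.14) and Ndufaf5 (0.11) had no signal. The subunit median exceeded the assembly factor median by 3.12 ± 0.35 in naive, 3.36 ± 0.29 in EAE-vehicle and 2.84 ± 0.17 in EAE-RIPK1inh astrocytes (SD). The EAE groups did not overlap in this gap, at 3.04 to 3.71 with vehicle and 2.56 to 3.00 with the inhibitor. Naive libraries, at 2.68 to 3.46, overlapped both, and no test was run on the gap.

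Ndufaf6 was the assembly factor that passed between the EAE groups of astrocytes. Its levels were 0.01, 0.40, 2.59, 2.83, 3.16 and 5.85 log2 FPKM with vehicle and 4.73, 4.82, 4.91, 5.83 and 6.08 with the inhibitor, beside 3.65, 3.69, 4.31 and 4.55 in naive astrocytes. Vehicle libraries were scattered, with 1 inside the inhibitor range and the other 5 below it, and all inhibitor libraries lay above the naive ones. The log2 difference of EAE-RIPK1inh over EAE-vehicle was 2.80 ± 0.83 (adjusted p = 0.84 by limma, exact two-sided permutation p = 0.026).

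In the same comparison the astrocyte markers Gjb6 (2.03) and Gja1 (1.07), 2 of 8, passed as higher, with list means of 8.59 to 9.60 log2 FPKM with the inhibitor and 7.78 to 9.00 with vehicle. The neuronal marker Tubb3 passed as lower (-2.26). None of 9 T cell markers passed, although all 9 log2 differences were below 0, with list means of 1.41 to 5.84 with the inhibitor and 1.45 to 6.08 with vehicle, and no monocyte, neutrophil, oligodendrocyte or microglia marker passed. Their part in the values of Ndufaf6 and Ndufa4l2 was not tested.

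Ndufaf3 and Ndufaf2 had log2 differences of 1.16 ± 0.56 and 1.36 ± 0.87 in the same direction and did not pass. Over the 8 assembly factors, 1 passed as higher and the median was 0.49, and over the 38 subunits Ndufa4l2 alone passed, as lower, with a median of -0.13, where 1.84% of genes passed as higher and 1.18% as lower. No gene of the whole table had an adjusted p under 0.05 in limma in this comparison, and 998 of the 30718 genes tested had an unadjusted p under 0.05. Against naive astrocytes, EAE-RIPK1inh astrocytes had Ndufs7 as the 1 subunit that passed, as lower, where 1.98% of genes passed as higher and 2.64% as lower, and the assembly factors had a median of -0.02 with none passing.

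The related lists held few calls in astrocytes. None of the 7 mt-Nd genes passed in EAE-vehicle against naive (median 0.30) or in EAE-RIPK1inh against EAE-vehicle. In EAE-vehicle against naive Sdhaf4 (2.38), Foxred1 (1.64) and Nubpl (2.22), assembly factors of complexes II and I, passed as higher and the mitochondrial RNA polymerase Polrmt (-3.17) as lower. In EAE-RIPK1inh against EAE-vehicle Ecsit (1.77), Sdhaf1 (1.89) and the transcription factors Esrra (2.49) and Gabpb1 (2.39) passed as higher and Nubpl (-1.77) as lower.

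Markers of other cells also differed in astrocytes between EAE-vehicle and naive. Of 8 astrocyte markers 5 passed as lower and 1 as higher, with list means of 9.32 to 9.76 log2 FPKM in naive and 7.78 to 9.00 in EAE-vehicle. Passing as higher were 6 of 9 T cell markers (list means of 0.61 to 1.29 and 1.45 to 6.08), 6 of 9 monocyte and neutrophil markers (0.14 to 1.58 and 2.60 to 5.45), 4 of 7 oligodendrocyte markers (6.19 to 7.39 and 6.38 to 9.91) and 4 of 10 microglia markers (0.80 to 2.09 and 1.69 to 3.71). The monocyte and neutrophil count and list means include Lcn2, which had the largest rise of that list (8.03, adjusted p = 3.19e-05 by limma). The paper reports Lcn2 as induced by RIPK1 activation in microglia and astrocytes, so in these cells it does not mark monocytes and neutrophils alone. Of 6 neuronal markers Tubb3 passed as higher (1.92). Their part in the astrocyte values was not tested.

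Whether the EAE effect differed between astrocytes and microglia was tested directly, as the microglia log2 fold change minus that of astrocytes in 1 fit over the 30 libraries. The fit had no term for mouse, so libraries of the 2 cell types that share a mouse were treated as independent. Its p-values leave out this pairing. Of 38 subunits, 15 passed as larger in microglia, where 4.97% of 30952 genes did, and Ndufa4l2 passed as smaller. The median difference was 0.92 over subunits, 36 of which were above 0, and 0.17 over genes with a mean of at least 1. By adjusted p under 0.05, which 0.604% of genes reached in this direction, Ndufa2 (1.89 ± 0.43, adjusted p = 0.0262 by limma), Ndufa4 (1.30 ± 0.31, adjusted p = 0.0326) and Ndufa13 (1.79 ± 0.43, adjusted p = 0.0395) differed.

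Ndufb5 (2.71 ± 0.93), Ndufa12 (2.43 ± 0.66), Ndufc1 (1.97 ± 0.77) and Ndufb2 (1.89 ± 0.50) had the largest other differences among subunits that passed, with limma's adjusted p at 0.215, 0.0701, 0.34 and 0.0644. The value of Ndufb5 included naive microglia replicate 4, without which its microglia log2 fold change was 0.67 in place of 2.06. The core subunit Ndufs1 (1.17) passed as larger in microglia. Of the assembly factors Ndufaf6 (3.95 ± 1.24, adjusted p = 0.154 by limma) and Ndufaf8 (2.00 ± 0.78, adjusted p = 0.329) passed, and 5 of 8 were above 0. The value of Ndufaf6 joined naive microglia libraries near 0 with EAE-vehicle astrocyte libraries near 0.

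**Figure D5:**
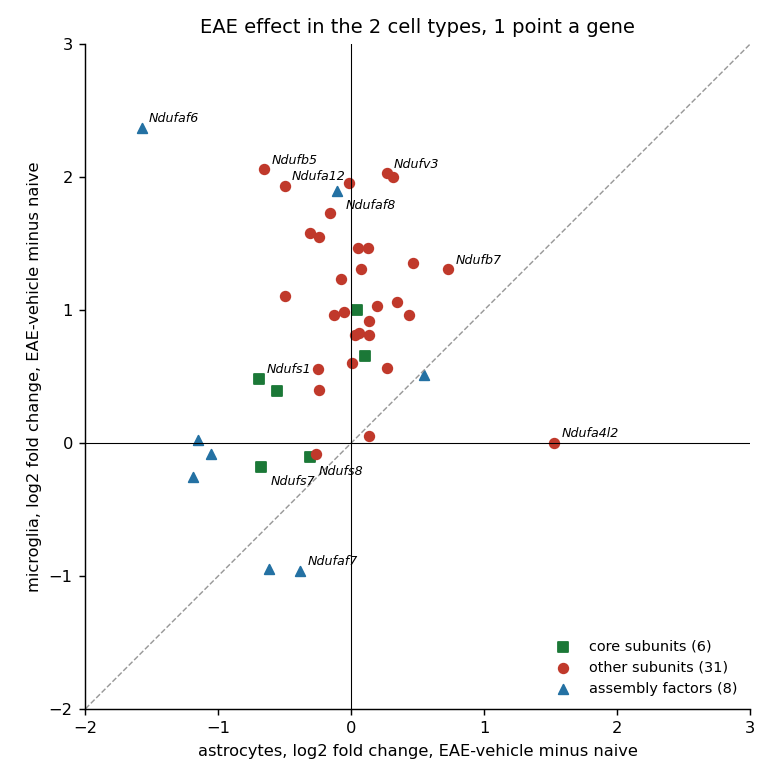
Log2 fold change of EAE-vehicle over naive in astrocytes (horizontal axis) against that in microglia (vertical axis), both in log2 FPKM units, with 1 point a member and subunits and assembly factors marked apart. Most subunits lie above the line of equal change, and Ndufa4l2 lies to the right.

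Ndufb4 and Ndufab1 have pseudogene relatives in the table, and how reads were split between such copies is not given in the sources used here. The annotation marked 22 of the 46 members (20 subunits, Ndufaf2 and Ndufaf3) as confounded, as it did 50.8% of all genes, a mark that the sources used here do not define. In EAE-vehicle against naive microglia 11 of 20 marked subunits and 11 of 18 unmarked ones passed as higher. Subunits with exons shorter in sum than the list's median passed in 14 of 19 and longer ones in 8 of 19, and the part of transcript length was not tested.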

How the data were processed

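RNA from sorted cells was turned into poly-A cDNA libraries and sequenced by the study. The authors deposited log2 FPKM values made in OmicSoft Array Studio, with quantile normalization across the 30 libraries. The aligner, the annotation release and the offset added before the logarithm are not given in the sources used here, and read counts were not analysed here, so no counting interval is given.

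Values were used as deposited in limma 3.58.1 (R 4.3.3, lmFit and eBayes with a mean-variance trend). The 3 groups of a cell type shared 1 fit over genes with a value above 0 in it, and the cell type difference used 1 fit over 30 libraries. Benjamini-Hochberg adjustment covered all genes tested. A gene passed at a fold change over 1.5 with an unadjusted p under 0.05. Exact two-sided permutation tests enumerated every assignment of the libraries. The study's methods name a paired test, but no label ties mice of different groups together, so the fits were unpaired. Summaries used Python 3.11.15 with pandas 2.3.3. The script was tested on simulated data.

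Members and gene lists were chosen with earlier results of these data known. Genes named were all assembly factors, the 7 nuclear core subunits, Ndufa4, Ndufa4l2, for each comparison the 4 largest rises and 4 largest falls among subunits that passed, the 2 highest and 2 lowest subunits by level in each cell type, and up to 5 subunits with the largest cell type difference. 1 core subunit that this rule names is not reported here on its own. Other members named were chosen after their values were seen. Alternatives were a filter on mean level, another offset, library centring, no trend, library weights, the number of genes with signal as covariate, a replicate block and leaving out each library. Some alternatives, for the comparison of EAE-RIPK1inh with naive, for core and accessory subunits and for medians, were added after seeing the data.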

Additional observations from a re-analysis of the deposited data

Results flagged for a closer look

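In groups of 4 to 6 libraries, a value was picked out where its gap to the nearest library, as a share of the group's range, exceeded Dixon's 95% critical value. This held for 21 of 180 groups of values examined (members and list medians by group), where chance alone picks about 1 in 20. The 21 include Ndufa4l2 in naive astrocytes and in EAE-RIPK1inh microglia. There every other library was at 0, so any value above 0 is picked out. The 180 also hold groups with Ndufa4l2 at 0 in every library, which could not be picked out. All values below are log2 FPKM, and no explanation was tested.

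In microglia, naive replicate 4 was apart for Ndufv3 (4.46). EAE-vehicle replicate 3 was apart for Ndufs3 (6.37), for Ndufaf1 (1.55), Ndufaf3 (0.60) and Ndufaf5 (0.047) and for the assembly factor median (3.46), all as the lowest of the 6. EAE-vehicle replicate 2 was apart for Ndufa12 (7.18) and replicate 4 for Ndufb9 (5.99). EAE-RIPK1inh replicate 3 was apart for Ndufb5 (6.96) and replicate 2 for Ndufa4l2 (0.36).

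In astrocytes, naive replicate 2 was apart for Ndufa12 (9.43), Ndufb8 (10.16) and Ndufaf1 (3.04), replicate 3 for Ndufaf2 (2.77) and replicate 4 for Ndufa2 (8.94) and Ndufa4l2 (1.00). EAE-vehicle replicate 1 was apart for Ndufa3 (8.29), replicate 2 for the assembly factor median (3.76), replicate 3 for Ndufaf8 (2.50) and replicate 6 for Ndufaf7 (5.72). EAE-RIPK1inh replicate 5 was the highest of its group for Ndufs1 (7.06).

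The EAE effect differed between the cell types by limma's adjusted p for Ndufa2 (1.89), Ndufa13 (1.79) and Ndufa4 (1.30), each the microglia log2 fold change minus that of astrocytes.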

How the results depend on the processing

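None of the 26 passing results of named members that were rerun under the alternatives turned in direction. Other members' own values were not rerun. The 22 subunits that passed as higher in EAE-vehicle against naive microglia became 26 under the filter on mean level, 20 under the replicate block and 19 to 28 without single libraries. The core subunit count of 1 became 3 under that filter and ranged from 0 (without naive replicate 4) to 4 (without naive replicate 1), and the assembly factor count of 3 ranged from 1 (without naive replicate 3) to 3. The 6 subunits of EAE-RIPK1inh against EAE-vehicle microglia became 22 under library weights and 2 under the replicate block, and ranged from 1 to 11, while the assembly factor count of 0 became 3 under library weights and ranged from 0 to 1 (without EAE-vehicle replicate 3). The 14 subunits of EAE-RIPK1inh against naive became 9 under the replicate block and ranged from 8 (without EAE-RIPK1inh replicate 3) to 18 (without replicate 4).

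In astrocytes, the 3 subunits of EAE-vehicle against naive became 0 under the filter or the replicate block and 1 with centring, and ranged from 0 to 5 (without EAE-vehicle replicate 1). The assembly factor count of 0 became 1 under library weights and ranged from 0 to 1, and their median log2 fold change became -0.21 under library weights and ranged from -1.07 to -0.39. For EAE-RIPK1inh against EAE-vehicle the subunit count of 1 became 0 under the filter, which leaves out Ndufa4l2, and ranged from 1 to 3 (without EAE-RIPK1inh replicate 5), the assembly factor count of 1 became 2 with no trend and ranged from 1 to 2, and their median ranged from 0.16 (without EAE-vehicle replicate 2) to 0.66. The 1 subunit of EAE-RIPK1inh against naive became 2 with no trend and 3 with the covariate, and ranged from 1 to 2. Apart from the filter's loss of Ndufa4l2, the cause was not tested.

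Of the 26 results of named members that passed, 8 no longer passed under the replicate block, 2 each under the filter and centring, 1 under library weights and 0 under the other settings. Libraries of the same number correlated between groups at -0.107 to 0.244 in microglia and -0.166 to 0.085 in astrocytes. In microglia 4 of 13 such pairs were over 0.1, and in astrocytes 0 of 13. Libraries of different number correlated at -0.353 to 0.337 in microglia and -0.114 to 0.183 in astrocytes. These correlations cannot show how the study paired its mice. Depth is unknown, so low levels, such as those of Ndufa4l2 and the assembly factors, have no counting interval.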
